A study of Mus musculus with 8 samples.

Results

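Nicotinamide nucleotide transhydrogenase (Nnt) and 9 other genes of mitochondrial antioxidant defence were followed in hippocampal RNA from BTBR mice and B6 controls. The members were fixed by name, as Nnt, Sod1, Sod2, Cat, Gpx1, Gpx4, Gsr, Prdx3, Txn2 and Txnrd2, and every non-control probe carrying one of these names was read. This gave 10 genes of 27373 gene names on the array, and 18 probes of 41174. All 18 probes passed the filter on dim probes, among 27981 probes tested in all, and 17 of them were well above background on all 8 arrays. The exception was the Sod1 probe A_51_P425205, which 3 of 4 B6 arrays and 4 of 4 BTBR arrays held well above background.

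RNA of the whole hippocampus was hybridized to one-colour Agilent arrays, with 1 array per mouse. The BTBR group held 4 untreated males aged 5 months with the genotype BTBR T+ Itpr3tf/J, an inbred strain studied as a model of autism. The B6 group held 4 untreated wild type males of the strain C57BL/6J, of the same age. The labels give C57BL/6J as the strain background of the BTBR mice too, although BTBR is a separate inbred strain, and both strains were bought from Jackson and bred in 1 facility. The design therefore compares 2 inbred strains, and no single allele is isolated by it.

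Mitochondria release superoxide as a by-product of respiration. Superoxide dismutases turn it into hydrogen peroxide, which catalase, the glutathione peroxidases and the peroxiredoxins then remove. The peroxidases are kept reduced by glutathione and thioredoxin, which in turn draw electrons from NADPH, and Nnt is an inner membrane enzyme that uses the proton gradient to make NADPH in the matrix. The C57BL/6J substrain is known to carry an internal deletion of Nnt that removes several exons and leaves no functional protein, so that this gene is a recurrent concern where B6 mice serve as controls.

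Nnt was read by 3 probes on chromosome 13, minus strand, in the mm9 coordinates of the array files. They did not overlap, stood 227 and 233 bases apart and together spanned 639 bases. The array files place A_51_P113399 and A_52_P395228 at positions 3318 and 3897 of the transcript NM_008710. Where they lie relative to the exons that the B6 deletion removes was not determined, and the values below are not a test of that deletion. The probe sequences are shown because the strain difference rests on these stretches of the mRNA; they are given 5′ to 3′ as in the array files, in lower case with no part marked, the first whole and the other 2 as their first 30 bases.
A_51_P113399 (NM_008710, chr13:120125108-120125167): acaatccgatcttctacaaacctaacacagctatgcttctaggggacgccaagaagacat
A_51_P113395 (Z49204, chr13:120124822-120124880): cccaaaaaagcaagagtattttgtccacag
A_52_P395228 (NM_008710, chr13:120124529-120124588): ccaaatctgcagcaggttatcagccttcac

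Between 56.8% and 71.9% of the probes were well above background on an array, and no non-control spot was saturated. The arrays lay on 2 slides, replicates 1 and 2 of each strain on slide 1 and replicates 3 and 4 on slide 2, so both strains were present on each slide. BTBR replicates 1 and 2 stood apart in markers of neighbouring tissue. The mean log2 intensity of 6 of 6 thalamus markers was 13.37 and 11.35 in these 2 arrays, against 10.72 and 10.73 in BTBR replicates 3 and 4 and 10.51 to 10.85 in B6. The mean of 8 of 8 oligodendrocyte markers was 14.58 and 14.84 there, against 14.21 and 13.85 in the other BTBR arrays and 14.12 to 14.33 in B6, whereas the mean of 10 of 10 hippocampal neuron markers was lower, at 14.33 and 14.40 against 15.07 and 14.97, and 14.76 to 15.03 in B6. The mean of 6 of 6 choroid plexus markers was 13.08 and 13.05, against 11.21 and 11.18, and 10.86 to 12.41 in B6. The hippocampal neuron markers, read as a check of the labelled tissue, were well above background on all 8 arrays. Values within each slide, or without BTBR replicates 1 and 2, are given beside the members whose differences were the largest. Leaving out these 2 arrays sets the BTBR arrays of slide 2 against B6 arrays of both slides. Strain and slide are then no longer balanced, and a shift between slides can enter those values.

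Nnt signal was higher in BTBR than in B6 at all 3 of its probes, by 1.62- to 1.69-fold, and no probe of the other 9 genes passed the threshold. With limma and Benjamini-Hochberg adjustment over all tested probes, at an adjusted p under 0.05, 3 of the 18 member probes were called higher in BTBR and 0 lower. Among all tested probes 3.33% were called higher, 4.34% lower and 7.67% in either direction. The 3 called probes belong to 1 gene, so that 1 of 10 member genes was called, a share close to the 10.1% of all gene names tested. Before adjustment, 3 of the 15 other member probes had a p under 0.05, those of Sod2, Cat and Gpx4, against 18.5% of all tested probes, and the rank product, the test named in the study's methods, called 3 higher and 0 lower, where it called 3.91% of all probes. Without BTBR replicates 1 and 2 the count stayed at 3, again in Nnt. In tissue RNA of this kind, fewer cells of a type and less RNA per cell cannot be told apart.

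**Figure D1:**
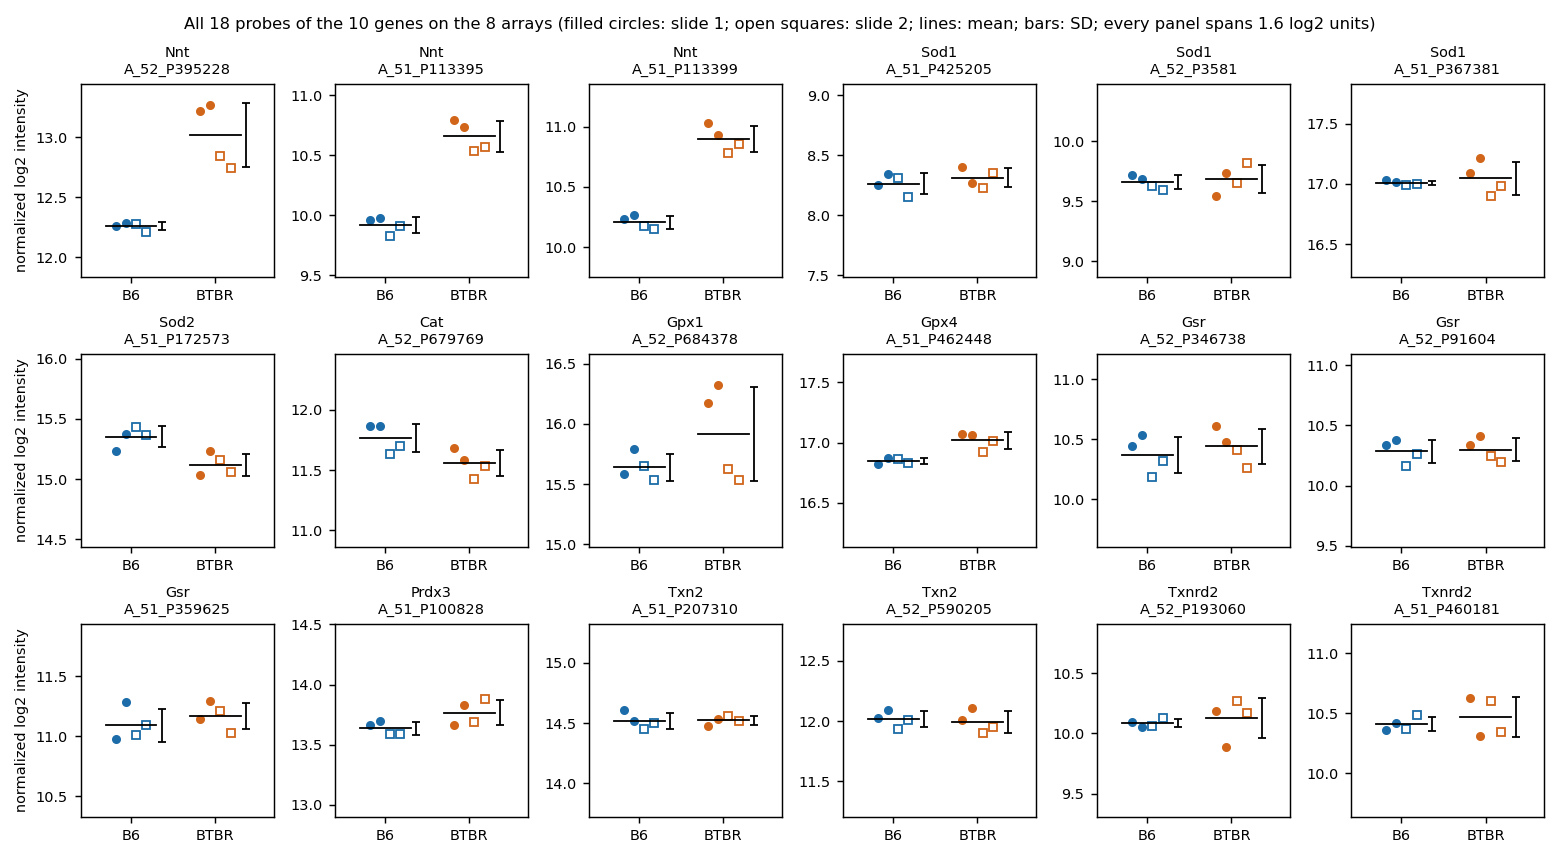
Normalized log2 intensity (vertical axis) of all 18 probes in the 4 B6 (blue) and 4 BTBR (orange) arrays. Filled circles are replicates 1 and 2 (slide 1), open squares replicates 3 and 4 (slide 2), lines the strain mean and bars the SD, and every panel spans the same number of log2 units; the BTBR arrays lie above the B6 arrays at the 3 Nnt probes and, by less, at the Gpx4 probe.

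The probe A_51_P113399, which is the closest of the 3 to the 5′ end, read log2 intensities of 10.24, 10.27, 10.18 and 10.15 in B6 replicates 1 to 4. In BTBR it read 11.03, 10.93, 10.78 and 10.86. The lowest BTBR array was thus above the highest B6 array. The means were 10.21 ± 0.054 (SD, n = 4) in B6 and 10.90 ± 0.11 in BTBR, a difference of 0.69 with a standard error of 0.070, or 1.62-fold (95% interval 1.45 to 1.80), with a limma adjusted p of 0.00032. Slide 1 alone gave 0.73 and slide 2 alone 0.66, and 98.5% of all tested probes had a smaller signed difference.

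At the middle probe, A_51_P113395, B6 read 9.96, 9.98, 9.83 and 9.91, and BTBR 10.80, 10.73, 10.53 and 10.57. The strains again did not overlap. The means were 9.92 ± 0.067 and 10.66 ± 0.13 (SD, n = 4 each), a difference of 0.74 with a standard error of 0.078, or 1.67-fold (95% interval 1.48 to 1.89), with a limma adjusted p of 0.00041. Slide 1 gave 0.80 and slide 2 gave 0.68.

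The probe nearest the 3′ end, A_52_P395228, read 12.26, 12.29, 12.28 and 12.21 in B6 and 13.21, 13.27, 12.85 and 12.74 in BTBR. The BTBR arrays were all above the B6 arrays, but they fell into a pair per slide, with the higher pair on slide 1. The means were 12.26 ± 0.034 and 13.02 ± 0.26 (SD, n = 4 each), a difference of 0.76 with a standard error of 0.12, or 1.69-fold (95% interval 1.40 to 2.04), with a limma adjusted p of 0.0045. Slide 1 alone gave 0.97 and slide 2 alone 0.55; the interaction of strain with slide had an unadjusted p of 0.0096 and an adjusted p of 0.44 in limma. Across all probes 0 passed that test after adjustment, and 2768 of 27981 had an unadjusted p under 0.05.

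The exact two-sided permutation test over the 8 arrays gave p = 0.029 at each of the 3 Nnt probes, the smallest value that 4 against 4 arrays allow. The slide 1 arrays of BTBR are those with the high thalamus, oligodendrocyte and choroid plexus markers. Without them the Nnt differences were 0.61, 0.63 and 0.54 at the probes taken from the 5′ to the 3′ side, with limma adjusted p-values of 0.0033, 0.0032 and 0.0053. The 3 probes ran together over the 8 arrays, with Pearson correlations of 0.958 to 0.995 of the values and 0.724 to 0.913 of the deviations from the strain means. These correlations describe 3 readings of the same labelled RNA and are not independent.

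**Figure D2:**
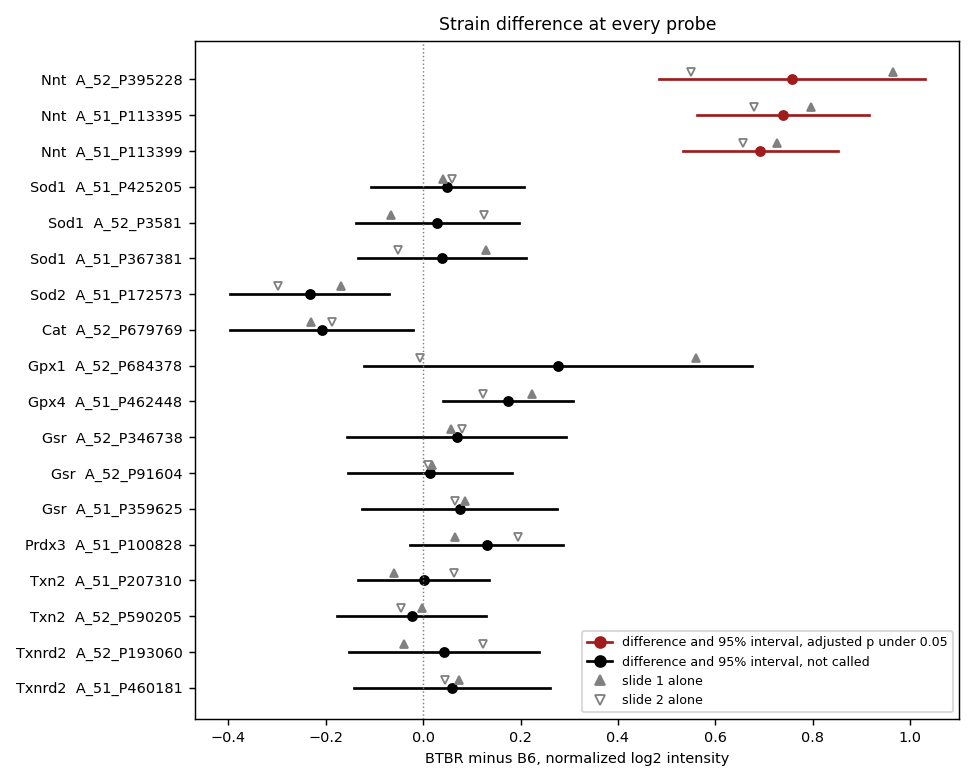
Difference BTBR minus B6 in normalized log2 intensity (horizontal axis) at each of the 18 probes. Circles with lines are the limma estimate and its 95% interval from 4 arrays per strain, red where the adjusted p was under 0.05; triangles pointing up and down are the differences on slide 1 and on slide 2 alone. Only the 3 Nnt probes are red, and their intervals run from 0.48 to 1.03 over the 3 probes.

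The superoxide dismutases showed no called difference. Sod2 is the manganese enzyme of the mitochondrial matrix and was read by A_51_P172573 (NM_013671, chr17:13208074-13208133). B6 read 15.23, 15.37, 15.44 and 15.37, and BTBR 15.04, 15.23, 15.15 and 15.06. The highest BTBR array reached the level of the lowest B6 array. The difference was -0.23 with a standard error of 0.072 and a 95% interval of -0.40 to -0.070, at a limma adjusted p of 0.10 and an exact permutation p of 0.057. It was -0.17 on slide 1 and -0.30 on slide 2.

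Sod1, the copper and zinc enzyme of the cytosol and the mitochondrial intermembrane space, had 3 probes. Their differences were 0.038 at A_51_P367381 (NM_011434), 0.029 at A_52_P3581 and 0.049 at A_51_P425205 (both BC057074). The 95% interval at A_51_P367381 was -0.13 to 0.21, and limma adjusted p-values were 0.78 to 0.89 over the 3 probes. B6 and BTBR arrays overlapped at each of them. At A_51_P367381 the 4 B6 arrays lay between 16.99 and 17.03, while the BTBR arrays ranged from 16.90 to 17.22.

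Cat encodes catalase, the peroxisomal enzyme that splits hydrogen peroxide. Its probe A_52_P679769 (NM_009804, chr2:103294660-103294719) read 11.87, 11.87, 11.63 and 11.70 in B6 and 11.69, 11.58, 11.43 and 11.53 in BTBR. Within each slide both BTBR arrays were below both B6 arrays, but across slides the strains overlapped. The difference was -0.21 with a standard error of 0.083 and a 95% interval of -0.40 to -0.020, at a limma adjusted p of 0.21 and an exact permutation p of 0.057. It was -0.23 on slide 1 and -0.19 on slide 2, and -0.29 without BTBR replicates 1 and 2 (adjusted p = 0.17). That last value sets BTBR arrays of slide 2 against B6 arrays of both slides, and B6 itself read lower on slide 2.

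Among the glutathione enzymes, Gpx4 had the only other member probe whose strains did not overlap. Gpx4 reduces lipid hydroperoxides in membranes. Its probe A_51_P462448 (NM_001037741, chr10:79518691-79518842) read 16.82, 16.87, 16.87 and 16.83 in B6 and 17.07, 17.07, 16.92 and 17.02 in BTBR. In all, 4 of the 18 member probes were without overlap, all with BTBR above B6, where 6.92% of all tested probes had BTBR above B6 without overlap, 7.25% had BTBR below and 14.2% were without overlap in either direction. The Gpx4 difference was 0.17 with a standard error of 0.059, or 1.13-fold (95% interval 1.03 to 1.24), and its limma adjusted p of 0.14 missed the threshold. The exact permutation p was 0.029. Slide 1 alone gave 0.22, slide 2 alone 0.12, and the arrays without BTBR replicates 1 and 2 gave 0.13. RefSeq lists processed copies of Gpx4 elsewhere in the mouse genome, and how far their RNA adds to this probe was not tested.

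Gpx1, the glutathione peroxidase of cytosol and mitochondria, differed between slides. Its probe A_52_P684378 (NM_008160, chr9:108242276-108242335) read 15.59, 15.80, 15.65 and 15.53 in B6 and 16.17, 16.33, 15.63 and 15.54 in BTBR. The 2 BTBR arrays of slide 1 were above every B6 array, whereas the 2 of slide 2 lay within the B6 range. The pooled difference was 0.28 with a standard error of 0.18 and a 95% interval of -0.12 to 0.68 (limma adjusted p = 0.47), from 0.56 on slide 1 and -0.0067 on slide 2. The interaction of strain with slide had an unadjusted p of 0.0077 and an adjusted p of 0.43. Without BTBR replicates 1 and 2, the arrays with the high thalamus, oligodendrocyte and choroid plexus markers, the Gpx1 difference was -0.057 (adjusted p = 0.83); the part of these markers in the Gpx1 value was not tested.

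Gsr, glutathione reductase, returns oxidized glutathione to its reduced form with NADPH. Its 3 probes (all NM_010344) gave differences of 0.068 at A_52_P346738, 0.014 at A_52_P91604 and 0.075 at A_51_P359625, with adjusted p-values of 0.73 to 0.95 in limma. The last 2 probes share 39 bases and are not separate readings. The widest of the 3 intervals, that of A_52_P346738, ran from -0.16 to 0.29, so changes of up to about this size in either direction cannot be set aside.

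The thioredoxin branch of the matrix showed no called difference. Prdx3, the mitochondrial peroxiredoxin, read 13.67, 13.70, 13.59 and 13.59 in B6 and 13.67, 13.83, 13.69 and 13.88 in BTBR at A_51_P100828 (NM_007452). Its difference was 0.13 with a 95% interval of -0.027 to 0.29 (limma adjusted p = 0.37), at 0.065 on slide 1 and 0.20 on slide 2. The strains overlapped on slide 1 and not on slide 2.

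Txn2, the mitochondrial thioredoxin, gave 0.0014 at A_51_P207310 (U85089) and -0.024 at A_52_P590205 (NM_019913), with 95% intervals of -0.13 to 0.14 and -0.18 to 0.13. Txnrd2, its mitochondrial reductase and a selenoprotein, gave 0.043 at A_52_P193060 and 0.059 at A_51_P460181 (both NM_013711), with adjusted p-values of 0.85 and 0.80 in limma. The arrays of both strains overlapped at all 4 probes.

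Over the 15 probes of the 9 genes other than Nnt, differences ran from -0.23 to 0.28. Of these, 12 were positive and 3 negative, and the smallest adjusted p was 0.10. The median difference of all tested probes was 0.01. The precision was limited by 4 mice per strain: over these 15 probes the widest 95% interval, that of Gpx1, reached 0.40 to either side of its estimate, and a p above the threshold does not show that the strains had equal levels.

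The wider redox system was read through 9 lists with 107 genes, all of which were on the array and tested. By the probe with the smallest p, 7 of the 107 genes (6.54%) were higher in BTBR and 2 (1.87%) lower, against 4.32% and 5.80% of all 18398 gene names tested; in either direction this was 8.41% against 10.1%. With median centring in place of quantile normalization, the counts were 4 higher and 3 lower. The median difference over the 107 genes, each at its brightest probe, was 0.01, as over all genes. Without BTBR replicates 1 and 2, 6 of the genes were called.

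**Figure D3:**
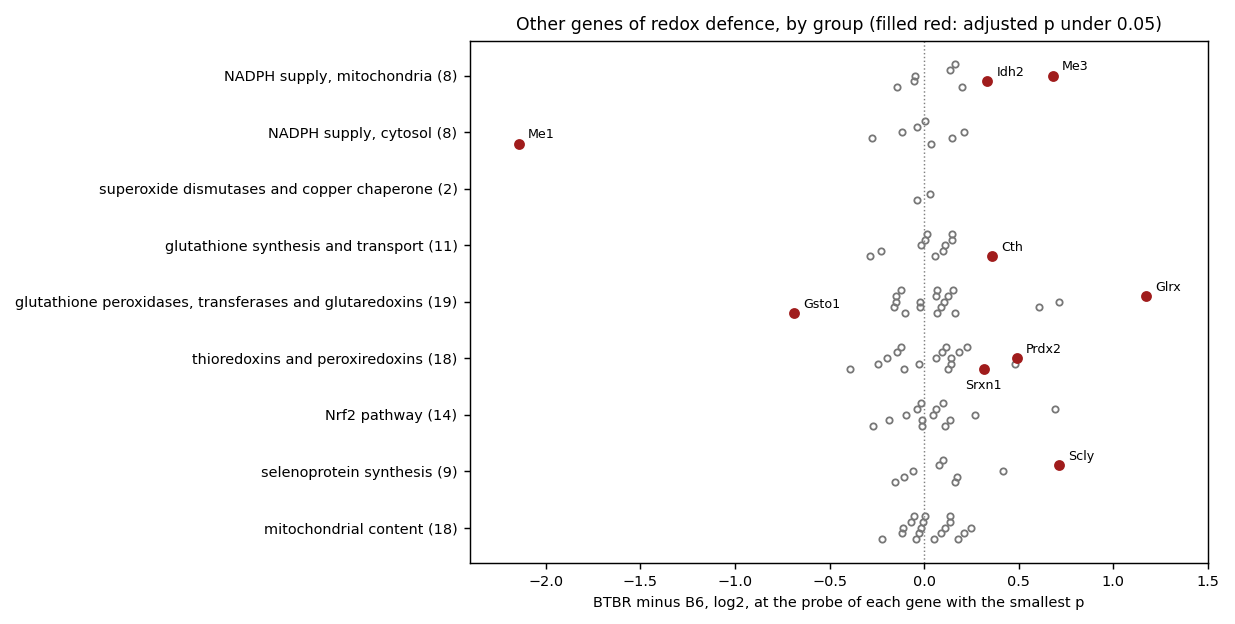
Difference BTBR minus B6 in normalized log2 intensity (horizontal axis) for the genes of 9 redox lists, 1 row per list with the number of genes tested in brackets and each gene at its probe with the smallest p. Filled red points are genes with a limma adjusted p under 0.05 and are named; the Me1 point is the measured value of a probe that was not well above background on any BTBR array. Most points lie near 0, and 7 named genes lie to the right and 2 to the left.

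The 8 other genes that supply mitochondrial NADPH included 2 that were higher in BTBR, and the list's median was 0.13. Me3, the mitochondrial NADP-dependent malic enzyme, was read by A_51_P396000 at 8.44, 8.60, 8.56 and 8.86 in B6 and 9.27, 9.29, 9.25 and 9.37 in BTBR. The strains did not overlap, and the difference was 0.68 with a standard error of 0.091 (limma adjusted p = 0.0016). Another Me3 probe, A_52_P360395, gave 0.66 (adjusted p = 0.018), but A_52_P129500, designed on another transcript, gave -0.27 without a call (adjusted p = 0.14), so the probes of this gene disagreed. Idh2, the mitochondrial NADP-dependent isocitrate dehydrogenase, was higher by 0.33 (standard error 0.075, limma adjusted p = 0.027). Without BTBR replicates 1 and 2 the Idh2 difference was 0.35 and no longer called (adjusted p = 0.084). The Idh2 call was also lost without any single B6 array, BTBR replicate 1 or BTBR replicate 3, with median centring and with the replicate block.

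The 8 genes of cytosolic NADPH supply had 0 higher and 1 lower. That gene was Me1, the cytosolic malic enzyme. Its probe A_51_P186601 (M29546) read 9.05, 10.05, 9.73 and 10.33 in B6 and was not well above background on any BTBR array, so that the signal of this probe, in the processing used here, was at least 4.22-fold lower there (limma adjusted p = 0.00055). That bound does not hold for every processing of this dim signal, since the measured difference was -2.14 here, -2.04 with normexp background correction, -1.51 in the deposited matrix and -5.19 with the processed signal, each of them called. The other Me1 probe, A_51_P266861 (NM_008615), did not share this: its means were 12.39 in B6 and 12.28 in BTBR, a difference of -0.11 with an adjusted p of 0.61. The 2 probes of Me1 thus disagreed.

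Among 18 thioredoxin and peroxiredoxin genes outside the members, 2 were higher. Prdx2, a peroxiredoxin of the cytosol, was higher at all 3 of its probes, by 0.49, 0.40 and 0.25 (limma adjusted p = 0.0019, 0.0038 and 0.022), and the strains overlapped at none of them. The rank product called none of these 3 probes (percentage of false prediction 0.10, 0.24 and 0.65). Srxn1, the enzyme that repairs over-oxidized peroxiredoxins, was called at 1 of 3 probes, with 0.32 at an adjusted p of 0.048, while the others gave 0.27 and 0.30 at 0.059 and 0.071. The Srxn1 call was lost when any single array was left out, with differences of 0.26 to 0.34 and adjusted p-values of 0.059 to 0.12, and with the slide as a block (adjusted p = 0.060).

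Of 19 glutathione peroxidases, transferases and glutaredoxins outside the members, 1 was higher and 1 lower. Glrx, the cytosolic glutaredoxin, read 11.78, 12.13, 11.97 and 11.93 in B6 and 13.50, 13.01, 13.08 and 12.91 in BTBR at A_51_P210395, without overlap. The difference was 1.17 with a standard error of 0.13, or 2.25-fold (limma adjusted p = 0.00061). Gsto1, a glutathione transferase of the omega class, was lower in BTBR at A_51_P155313, with a difference of -0.69 (adjusted p = 0.0010).

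Of 11 genes of glutathione synthesis and transport, 1 was higher: Cth, the enzyme that makes cysteine from cystathionine, by 0.36 (limma adjusted p = 0.024). Without BTBR replicates 1 and 2 the Cth difference was 0.37 and not called (adjusted p = 0.099). Its call was also lost without any single B6 array, BTBR replicate 1 or BTBR replicate 4, with median centring and with the replicate block. Of 9 genes of selenoprotein synthesis, 1 was higher, Scly, which releases selenium from selenocysteine. It gave 0.71 at A_51_P133369 (adjusted p = 0.00079) and -0.18 without a call at A_52_P73021. None of the 2 genes of the list with Sod3 and the copper chaperone, the 14 genes of the Nrf2 pathway or the 18 genes of mitochondrial content was called by limma; before adjustment 0, 3 and 4 of them had a p under 0.05, and the rank product called 0, 1 and 0. Of all gene names tested, 23.5% had a p under 0.05 before adjustment and 5.43% were called by the rank product. The mitochondrial content list, which holds mRNAs of mitochondrial proteins and their regulators, had a median of -0.01. The amount of mitochondria itself was not measured. The lowest and highest array means of the mitochondrial content list were 14.88 and 14.90 in B6 and 14.85 and 14.94 in BTBR.

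Markers of other cell types were called between the strains as well. Among 8 astrocyte markers 2 were lower in BTBR, Gfap and Aldoc, beside 5.8% of all gene names lower and 4.32% higher. Gfap gave -1.30 at A_52_P52303 (limma adjusted p = 0.0015) but -0.57 and -0.49 at its other probes (adjusted p = 0.0059 and 0.036). Aldoc gave -0.61 at 1 of 2 probes. The rank product called Gfap but not Aldoc (percentage of false prediction 0.059 at that probe). The mean of the astrocyte list was 14.58 to 14.65 in B6 and 14.24 to 14.40 in BTBR. Among 8 microglia markers, Cx3cr1 gave 1.41 at 1 of 2 probes, while Itgam gave -0.40 at 1 of 2 probes and Tyrobp -0.74, so that 1 was higher and 2 were lower beside the same shares. Tyrobp lost its call without B6 replicate 2 (-0.69, limma adjusted p = 0.052) or B6 replicate 3 (-0.72, adjusted p = 0.053). Itgam lost its call without BTBR replicates 1 and 2 (-0.39, limma adjusted p = 0.054), and its difference was -0.88 with the processed signal and -0.27 in the deposited matrix. Called genes were 1 of 10 in the neuron list and 1 of 6 in the meninges list, beside 10.1% of all gene names in either direction: Syt1, with -0.71 at 1 of 6 probes, and Igf2, with 1.24 at A_51_P516833, which lost its call without BTBR replicates 1 and 2 (0.90, adjusted p = 0.20), with the replicate block and without any single array other than B6 replicate 3 or BTBR replicate 3. Of the oligodendrocyte, endothelial, red blood cell, choroid plexus and thalamus lists, with 8, 6, 3, 6 and 6 genes tested, limma called 0 genes. Before adjustment 2, 1, 0, 0 and 0 of them had a p under 0.05, and the rank product called 1, 0, 0, 0 and 2, beside the same 23.5% and 5.43% of all gene names. The mean of the red blood cell list was 13.50 in BTBR replicate 3, against 11.57 to 11.95 in the other BTBR arrays and 11.37 to 12.13 in B6. The part of these cell types in the Nnt difference was not tested.

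The genes around Nnt were read through the 21 other probes within 2 Mb on chromosome 13, of which 13 were tested, carrying 7 gene names. Of the 13 probes, 1 was higher and 3 lower in BTBR (30.8%, against 7.67% of all tested probes), and the 4 lay 115 to 151 kb from Nnt on the same side. This was a count over few probes, some of the same gene. The strongest differences were those of 4833420G17Rik, with -1.59 at A_51_P429572 and -1.77 at A_52_P613498 (limma adjusted p = 8.7e-07 and 9.6e-07). At A_51_P429572 the B6 arrays read 10.55, 10.40, 10.46 and 10.55 and the BTBR arrays 8.85, 8.96, 8.83 and 8.93. These strains were far apart, with means of 10.49 ± 0.071 and 8.90 ± 0.062 (SD, n = 4 each).

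Paip1, which encodes a partner of the poly(A) binding protein, was higher by 0.94 at A_51_P470989 (adjusted p = 4.9e-05 in limma) but gave 0.085 and -0.070 at its other 2 probes, neither called. The probe of 3110070M22Rik (A_51_P290914) gave -0.91 (adjusted p = 0.00066), but it was well above background on 1 of 4 BTBR arrays. The size of its difference depended on the processing, with -2.75 from the processed signal and -0.57 in the deposited matrix. The probes of Mrps30 (-0.024) and Fgf10 (-0.49, adjusted p = 0.36) and both probes of Gm9777 were not called. The Gm9777 probes, 73 kb away, were the tested probes closest to Nnt.

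**Figure D4:**
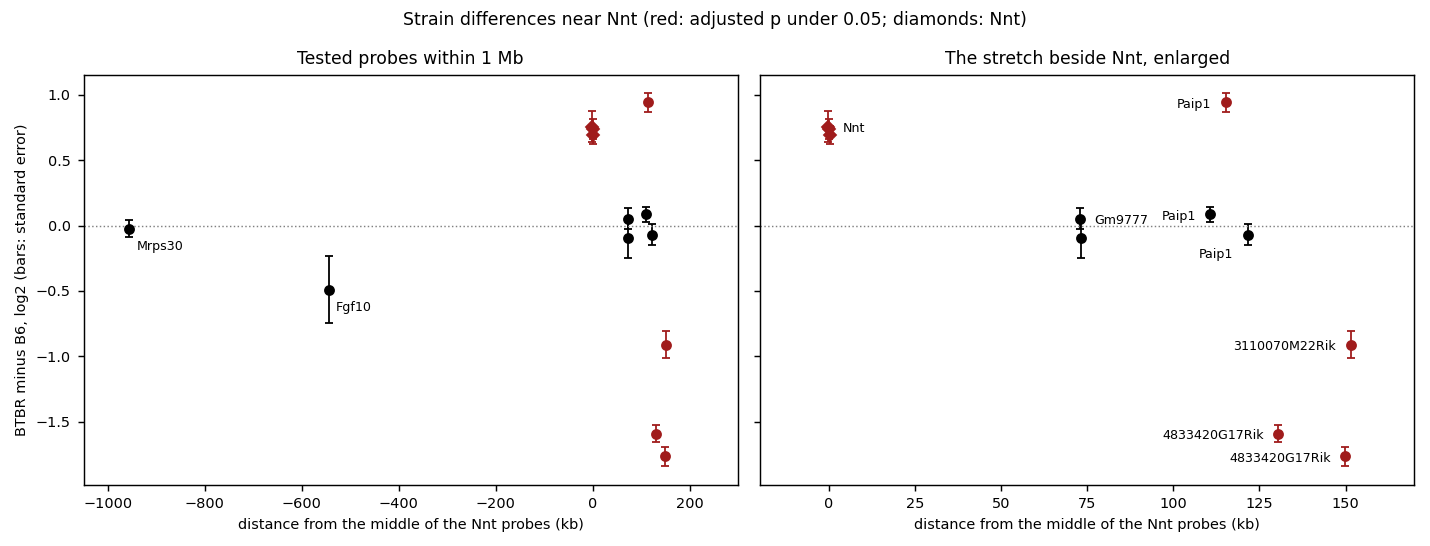
Difference BTBR minus B6 in log2 intensity (vertical axis, bars are standard errors) against the distance in kb from the middle of the Nnt probes on chromosome 13, for the tested probes within 1 Mb (left) and enlarged (right). Diamonds are Nnt, circles other probes, red an adjusted p under 0.05; the 4 red circles lie 115 to 151 kb from Nnt, above 0 for Paip1 and below 0 for 4833420G17Rik and 3110070M22Rik, and the 2 Gm9777 probes between them and Nnt are near 0.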

How the data were processed

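Hippocampal RNA of 4 BTBR and 4 B6 mice was labelled with Cy3 and hybridized to one-colour Agilent arrays of 45018 spots, 1639 of them controls. The authors deposited scanner files with the intensity of each spot, not yet normalized, extracted with Agilent Feature Extraction, whose version is 10.7.3.1 in the file headers and 9.1 in the submitters' processing notes, and a matrix of log2 values which the authors had background-subtracted, quantile normalized and reduced to the median of replicate spots. Groups were taken from the labels. The labels name 4 mice per strain.

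From the scanner files, the local background median was subtracted from the mean intensity (minimum 0.5), an offset of 50 added, and log2 values quantile normalized. Flagged outlier spots were dropped, which removed 154 probes, and replicate spots were reduced to their median. Probes well above background on at least 75% of the arrays of a strain were tested with limma 3.58.1 in R 4.3.3 (with data.table, version 1.17.8), on strain alone, as BTBR minus B6, with Benjamini-Hochberg adjustment over 27981 probes. A probe that no array of a strain held well above background was given a bound, from the mean of the bright strain over the higher of the dim probe and the lowest detected signal. Single probes were also tested by an exact two-sided permutation test. The rank product (100 permutations, percentage of false prediction of 0.05 or less) was an alternative. The code was tested on simulated data. Figures were drawn in Python 3.11.15 with pandas 2.3.3 and matplotlib 3.10.9.

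All members with every probe, at most 4 called genes per list, the called genes within 2 Mb of Nnt and the 5 probes most like Nnt were named. The members and lists were chosen with earlier results of these data known. Coordinates are those of the array files (mm9); RefSeq gene names were consulted, and exon annotation was not used here. The slide was examined as a batch. Values of 1 gene near Nnt are not reported here.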

Additional observations from a re-analysis of the deposited data

How the results depend on the processing

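Over 21 alternatives in background correction, scaling, filter, covariates, test and samples, no called value turned its sign. The 3 Nnt probes were called in all 57 of their values: 0.54 to 0.85 at A_52_P395228, 0.63 to 0.93 at A_51_P113395 and 0.61 to 0.82 at A_51_P113399, with adjusted p-values of at most 0.019. No other member probe was called in any of 284 values, of which 19 turned sign. Leaving out each array in turn gave 3 member probes called, 1 member gene called, 4 probes near Nnt called and 6 to 10 redox genes called, 9 in the full set. Whether the replicate numbers pair the mice was not settled, since the correlations of deviations were mixed (-0.14, 0.51, -0.10 and 0.39). With the replicate block, 3 member probes, 4 probes near Nnt and 6 redox genes were called. The rank product gave the same 3 counts, and the slide as a block gave 3, 4 and 10. Calls that did not last were those of Srxn1 (kept in 2 of 19 alternatives), Idh2 and Cth (10 of 19 each), Igf2 (11 of 19), Tyrobp (17 of 19) and Itgam (18 of 19). The rank product is not among these 19, and it did not call Srxn1, Idh2, Cth, Itgam, Prdx2 or Aldoc. Of the 5 probes most like Nnt in their values, 3 were kept with the processed signal minus the 75th percentile and 3 with median centring, 2 to 3 when each array was left out in turn, and 1 without BTBR replicates 1 and 2, an alternative chosen after seeing the data. Intervals and p-values rest on 4 mice per strain, except where arrays were left out. Without BTBR replicates 1 and 2 they rest on 2 BTBR mice and 4 B6 mice. A call lost with fewer mice does not by itself show a smaller difference.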

Other observations

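The probes most like the brightest Nnt probe, A_52_P395228, were sought over the 8 arrays as a description. By Pearson correlation of the values they belonged to Btbd17 (r = 0.998), Olfml1 (0.991), Slc46a1 (0.988), Adam17 (0.987) and Map1a (0.986). All 5 probes were higher in BTBR, by 0.30 to 0.59 with limma adjusted p-values of 0.0036 to 0.019, and they were chosen for that likeness. The other Map1a probes gave 0.11, 0.11 and -0.013 and were not called (limma adjusted p = 0.60, 0.72 and 0.96). By correlation of the deviations from the strain means they belonged to Itgb4 (0.997), 2310044G17Rik (0.994), Ddr1 (0.992), Scd1 (0.992) and Wnk1 (0.991), and none of these 5 was called between the strains. In both sets the 8 points share the 2 slides and the 2 BTBR arrays with high oligodendrocyte markers. Among the members, Gpx1 had a correlation of 0.976 of its deviations with those of A_52_P395228, and both were higher in BTBR replicates 1 and 2 than in BTBR replicates 3 and 4.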
